A study of Mus musculus with 3 samples.

Results

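The baseline transcriptome of Hepa1c1c7 cells carrying an empty vector was described from 1 of the 3 arrays of the series. Hepa1c1c7 is a cell line derived from a mouse hepatoma, a tumour of liver cells. In all 3 groups the cells received a plasmid by lipid transfection. For the array described here it was the empty vector pCMV6KN. For the arrays labelled Mst1r vector and Slpi vector it was a clone that carried the coding sequence of Mst1r or of Slpi. The cells were kept in culture medium with serum, and no array of untransfected cells was analysed here, so the levels are those of cells exposed to a plasmid and a transfection reagent. Each vector had 1 array without a replicate, so no test was possible and no value has a replicate check. Labelling started from 100 ng of total RNA on a single-colour Agilent SurePrint G3 Mouse array, and a level is the processed signal, the fluorescence of a spot after background subtraction, on a linear scale.

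The members were chosen by position and by a flag of the scanner software. Probes outside the first block of rows of the array were used, together with the 300 probes that were printed 10 times. A gene was counted as detected when at least 1 such probe was flagged well above background, and its level was that of its brightest probe. Of 17207 named genes that could be assessed, 9729 (56.5%) were detected and 7478 were not. A further 5703 named genes had probes in that first block alone, where dark control probes also gave stray signal. They were not assessed, and their values are given below only where they are named as read in the rows left out.

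The liver cell that such a hepatoma descends from makes most proteins of the blood plasma, takes up and modifies drugs, builds bile acids, turns ammonia into urea and releases glucose between meals. These functions depend on a network of transcription factors, among them Hnf4a, Cebpa and the Foxa proteins, that hold one another in expression. Albumin, transthyretin and apolipoprotein A-I are products of the mature cell, whereas alpha-fetoprotein is made by the fetal liver and by many liver tumours. Dividing tumour cells in culture, for their part, use the genes of DNA synthesis, mitosis, glycolysis and lipid synthesis.

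The hepatocyte label was checked first against 5 markers, and the data supported it in part only. Alb, which encodes albumin, was detected at a signal of 3095, and its second probe, in the rows left out, read 5083. Ttr, the transthyretin gene, read 4.30, and Apoa1, the apolipoprotein A-I gene, read 4.83, neither well above background. Hnf4a, the nuclear receptor at the centre of the hepatocyte network, read 4.14, and its other probe, in the rows left out, read 4.79. Of the 4 assessed markers 1 was detected, against 56.5% of all assessed genes, and 3 defining markers were at the floor of the scale. The remaining marker, Afp, which encodes alpha-fetoprotein, lay only in the rows left out, where it read 19822. On the arrays labelled Mst1r vector and Slpi vector, the same Afp probe read 16911 and 18850. The Alb probe read 3575 and 2800 on those arrays. Apoa1 read 9.64 and 43.1 there and was flagged well above background on the array labelled Slpi vector alone.

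**Figure D1:**
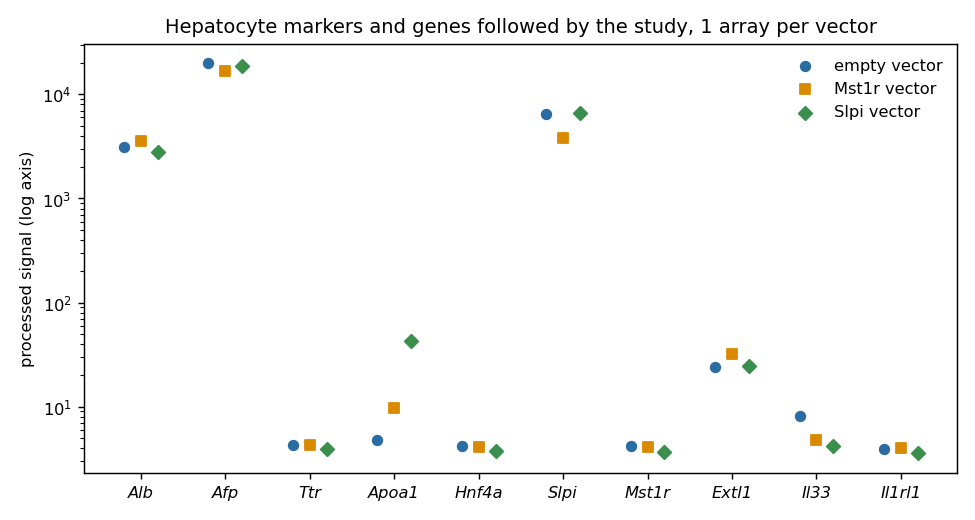
Processed signal (vertical log axis) of the 5 hepatocyte markers, of the genes the study followed and of Il1rl1, which the paper does not name. Each gene has 1 point for each of the 3 arrays, not scaled between arrays. Error bars are absent because each vector had 1 array. Alb, Afp and Slpi lay between 2800 and 19822 on every array, while Ttr, Hnf4a, Mst1r and Il1rl1 lay below 5 on every array.

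Detected signals ran from 18.9 to 206064, a 10885-fold range, and the brightest undetected gene read 24.5. The 25th, 50th and 75th percentiles of the detected genes were 137, 708 and 2720, and these are used below to place a gene in the lowest or top 25% of detected genes. No spot was saturated. Of the detected genes, 1167 lay at or under 50, the minimum that the study's methods set for these cells. The median SD between the 10 spots of a probe was 0.05 (log2) above a log2 signal of 14 and 0.24 below a log2 signal of 3. The spread between probes of a gene was far wider. Among 1864 genes with 2 probes that were both detected, the median gap between the probes was 4.34-fold and the 90th percentile was 32.6-fold. Among 4004 genes with at least 2 assessed probes, the flags disagreed for 878 (21.9%). A signal places a gene in a broad class and does not rank it against a neighbour, since it also depends on the sequence of the probe. Where a named list member had a probe in the rows left out that was flagged otherwise, or read over 10 times brighter, that probe is given too.

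**Figure D2:**
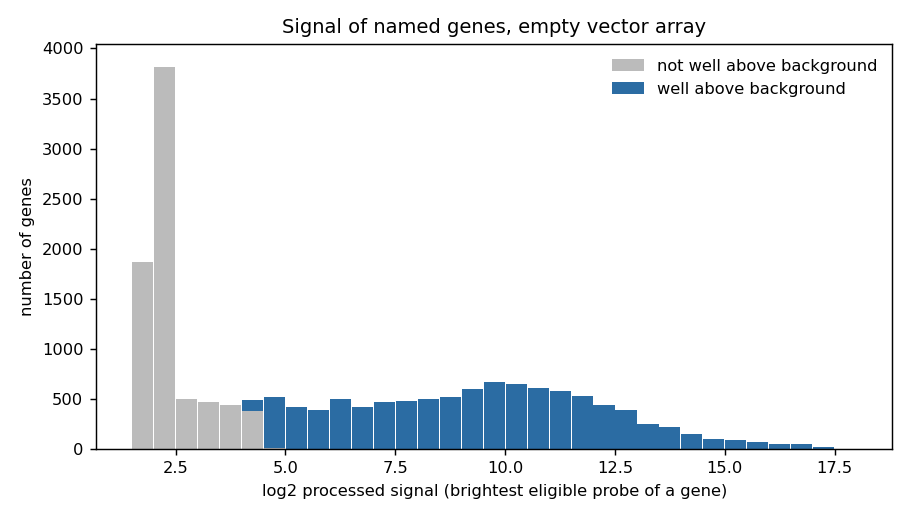
Number of named genes (vertical axis) by log2 processed signal in steps of 0.5 (horizontal axis) on the empty vector array, stacked by whether the gene was well above background. The 7478 undetected genes crowd at the floor, with 3816 of them between 2 and 2.5, and the 9729 detected genes spread over the rest of the axis.

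The promoters of the albumin-family genes Alb and Afp are shown because these were the hepatocyte markers with signal on this array. Hnf4a was not detected. The windows are from RefSeq on build GRCm38.p6, 250 bases before the annotated start of transcription to 50 bases after it, written from 5′ to 3′ along the gene. Capitals mark the TATA box, searched as TATAAA, and the CCAAT box, searched as CCAAT, on both strands.
Alb promoter, chr5:90460620-90460919, plus strand: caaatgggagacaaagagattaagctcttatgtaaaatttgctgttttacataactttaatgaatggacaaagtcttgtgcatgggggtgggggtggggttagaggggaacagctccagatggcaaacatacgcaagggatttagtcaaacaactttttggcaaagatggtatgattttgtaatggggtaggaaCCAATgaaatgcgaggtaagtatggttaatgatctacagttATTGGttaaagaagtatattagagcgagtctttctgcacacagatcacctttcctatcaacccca
Afp promoter, chr5:90490464-90490763, plus strand: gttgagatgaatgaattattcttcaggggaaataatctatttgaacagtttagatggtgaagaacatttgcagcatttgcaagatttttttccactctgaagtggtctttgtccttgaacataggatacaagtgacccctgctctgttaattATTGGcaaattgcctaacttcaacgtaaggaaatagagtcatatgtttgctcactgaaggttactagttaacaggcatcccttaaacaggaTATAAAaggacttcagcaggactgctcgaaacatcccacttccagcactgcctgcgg
In Alb the CCAAT boxes lay at positions -56 to -52 and, on the other strand, -15 to -11 from the annotated start. TATAAA was not in the Alb window. In Afp a CCAAT box on the other strand lay at -98 to -94 and TATAAA at -7 to -2. Whether transcription begins at these annotated starts in Hepa1c1c7 cells was not tested. TATAAA was in the windows of 4234 of 27025 genes (15.7%) and in 9 of 25 plasma protein genes that had a window. It was present for 772 of 7785 detected genes (9.92%) and for 1135 of 5817 undetected genes (19.5%). A match describes letters in a window and not a bound site.

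Promoters of a sterol enzyme and of 2 mitotic genes are shown as single examples from lists that were detected in full. Hmgcs1 encodes the synthase that makes the precursor of mevalonate, Cdc20 an activator of the anaphase-promoting complex and Plk1 a mitotic kinase. In Hmgcs1, capitals mark the sterol element, searched as TCACNCCAC, and the CCAAT box. In Cdc20 and Plk1, capitals mark the CCAAT box and the cell cycle homology region, searched as TTTGAA.
Hmgcs1 promoter, chr13:119690101-119690400, plus strand: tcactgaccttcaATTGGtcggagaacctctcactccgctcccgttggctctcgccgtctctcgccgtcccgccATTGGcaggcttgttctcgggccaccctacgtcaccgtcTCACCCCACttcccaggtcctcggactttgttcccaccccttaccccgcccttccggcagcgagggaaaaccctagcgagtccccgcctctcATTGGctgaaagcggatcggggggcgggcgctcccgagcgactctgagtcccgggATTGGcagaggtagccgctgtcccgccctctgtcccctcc
Cdc20 promoter, chr4:118437294-118437593, minus strand: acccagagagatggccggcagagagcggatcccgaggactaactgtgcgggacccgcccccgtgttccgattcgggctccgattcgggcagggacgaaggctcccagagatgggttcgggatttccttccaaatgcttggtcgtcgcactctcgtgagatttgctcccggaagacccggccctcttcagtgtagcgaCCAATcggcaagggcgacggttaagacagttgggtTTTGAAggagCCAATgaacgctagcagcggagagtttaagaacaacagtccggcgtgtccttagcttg
Plk1 promoter, chr7:122159185-122159484, plus strand: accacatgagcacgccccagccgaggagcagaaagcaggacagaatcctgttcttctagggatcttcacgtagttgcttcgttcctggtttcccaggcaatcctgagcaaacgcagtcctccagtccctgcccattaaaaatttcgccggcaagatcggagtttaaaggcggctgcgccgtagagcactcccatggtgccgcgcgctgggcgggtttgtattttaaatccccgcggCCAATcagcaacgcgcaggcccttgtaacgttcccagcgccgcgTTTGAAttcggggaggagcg
CCAAT was in the windows of 11096 of 27025 genes (41.1%), of 18 of 21 mitosis genes and of 13 of 15 sterol and fatty acid synthesis genes with a window. TTTGAA was in 5466 of 27025 genes (20.2%) and in 15 of 21 for mitosis. The E2F motif, searched as TTTGGCGC or TTTCGCGC, was found for 251 of 27025 genes (0.929%) and for 9 of 22 DNA replication genes. The sterol element was in 388 of 27025 genes (1.44%) and in 1 of 15 for sterol and fatty acid synthesis, which was that of Hmgcs1.

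Genes of translation and the cytoskeleton were among the brightest. Among the 30 named genes with the highest signal, 12 encoded ribosomal proteins, headed by Rpl41 at 206064, and 3 encoded H2A histones. Tuba1b, a tubulin, read 176225, Actb, the cytoplasmic actin, read 153183, and Fth1, the heavy chain of the iron store ferritin, read 138110. Gapdh of glycolysis read 130941, and its other 5 probes read 14648 to 61919. Probes for H2A histones, tubulins and ribosomal proteins can bind near-identical family members and pseudogenes, so their signals belong to the family. Some names of the 30 rest on a single bright probe. Of 15 with another probe on the array, 7 had that probe at least 10 times dimmer. Ppm1k, a mitochondrial phosphatase gene, read 157140 with the other probe at 36.7, and Elk1, a transcription factor gene, read 128180 with the other probe at 298. The 100 brightest genes held 26.2% of the summed signal of the detected genes.

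Gene families that every dividing cell uses were detected nearly throughout. Cytosolic ribosomal protein genes were detected in 70 of 73 cases, mitochondrial ribosomal protein genes in 56 of 56, proteasome subunits in 28 of 30 and subunits of respiratory complex I in 22 of 22. Of 18 housekeeping genes, 18 were detected and 17 stood in the top 25%. Tbp, the TATA-binding protein, was the lowest of them at 114. Families that few tissues use were mostly undetected. Olfactory receptors were detected in 64 of 719 cases (8.90%), 24 of them over 50, and vomeronasal receptors in 12 of 174 (6.90%). Of 29 beta-defensins, antimicrobial peptides of epithelia, 0 were detected. Taste receptors were detected in 4 of 26 cases (15.4%) and keratin-associated proteins in 12 of 34 (35.3%), 9 of the latter over 50. Some members of these families read above the median of detected genes (708). The brightest, named because of their values, were Olfr544 at 1743, Krtap10-10 at 1242 and Tas2r113 at 840.

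Among plasma proteins, 9 of 23 assessed genes were detected (39.1%, against 56.5% of all assessed genes). Rbp4, the carrier of retinol in blood, read 48007, Cp, the copper protein ceruloplasmin, read 6166 by 2 of 2 probes, with another at 12.8 in the rows left out, and Alb read 3095. The other 6 detected genes lay in the lowest 25%, between 22.8 for Serpinf2 and 39.0 for Hpx. Not detected were Ahsg at 15.5, Apoh at 5.00, Ambp at 4.0, Vtn at 4.35 and the alpha-1-antitrypsin genes Serpina1a at 11.6 and Serpina1d at 4.30, which are near-identical copies. Another Serpina1a probe, in the rows left out, read 28.6 and was flagged. Trf, the iron carrier transferrin, read 48573 in the rows left out, by 2 of 2 probes. Gc, the vitamin D carrier, read 3.87 there.

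Coagulation genes were detected in 8 of 20 cases (40%, against 56.5% of all assessed genes). Pros1, the anticoagulant protein S, read 5121. F3, the tissue factor that starts clotting, read 317. Prothrombin (F2, 4.03), the fibrinogen chain Fgb (4.27), factors F7 (4.43), F9 (4.43) and F10 (3.79) and plasminogen (Plg, 3.80) were all at the floor of the scale. Tissue factor is made by many cell types, whereas the liver is the main source of the undetected factors just named. F5 (80.6), F11 (48.5), Serpind1 (27.9) and Klkb1 (24.7) were also detected, all in the lowest 25%, and F8 (7.69) was not. Proc read 53.3 and was flagged in the rows left out.

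Apolipoproteins and lipoprotein handling gave 10 detected genes of 18, or 55.6% against 56.5% of all assessed genes. With a signal over 50 in place of the flag, the share was 27.8% against 49.8%. Apoa2, the second protein of high-density lipoprotein, read 2631 by 2 of 2 probes. Scarb1, the receptor that takes up lipid from high-density lipoprotein, read 1527. Apoe, a ligand of lipoprotein receptors, read 302. Apob, the scaffold of very-low-density lipoprotein, read 4.33 with 0 of 2 probes detected, and Apoc3 (4.13), Apoa4 (4.79) and Lipc (4.24) were not detected, although another Apoc3 probe read 52.1 and was flagged in the rows left out. Mttp, which loads lipid onto Apob, read 99.8 in the rows left out.

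Complement and acute phase genes were detected in 8 of 21 cases (38.1%, against 56.5% of all assessed genes). C3, the central complement component, was the brightest at 33606 by 2 of 2 probes, followed by C1s1, a protease of the classical pathway, at 9980 and Lcn2, an iron-binding acute phase protein, at 4049. C2 read 2088, and Lbp, which binds bacterial lipopolysaccharide, read 893. The terminal components C8a (5.04), C8b (4.24) and C9 (4.18), the alternative pathway protease Cfb (8.19), the orosomucoids Orm1 (4.08) and Orm2 (3.74) and the lectin Mbl1 (4.03) were not detected. Another Cfb probe, in the rows left out, read 67.8 and was flagged.

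Liver transcription factors were detected in 14 of 22 cases, or 63.6% against 56.5% of all assessed genes. Cebpb, a factor of the acute phase and of growth, read 7838, Xbp1, which drives secretory capacity, read 3881 by 3 of 3 probes, and Tbx3, a T-box factor of liver progenitors, read 3054. The pioneer factors Foxa2 and Foxa1 read 2200 and 1314, and Gata4 read 625 by 1 of 2 probes. The bile acid receptor Nr1h4 read 437. Hnf4a (4.14), Cebpa (4.54), Ppara (4.48), Prox1 (5.77), Nr0b2 (6.84), Gata6 (4.30) and Creb3l3 (9.65) were not detected.

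Drug metabolism was represented by few genes. Of 20 assessed members, 6 were detected (30%, against 56.5% of all assessed genes). Ephx1, the microsomal epoxide hydrolase, read 22043, the glutathione transferases Gstm1 and Gstp1 read 10744 and 3467, and Gsta3 read 785. Cyp1a1, the P450 induced through the Ah receptor, read 1645. Cyp2e1 (15.2), Cyp2c29 (4.01), Cyp2b10 (3.82), Cyp3a25 (4.55) and Cyp2a5 (4.01), major P450s of mouse liver, were not detected, although another Cyp2b10 probe read 43.4 and was flagged in the rows left out. Across all 65 assessed genes with names of the P450 form, 16 were detected (24.6%) and 0 stood in the top 25%. After Cyp1a1 the brightest were Cyp17a1 at 1640 and Cyp2s1 at 1022, which are named here because of their values. Por, the reductase that feeds electrons to these enzymes, read 11841 in the rows left out.

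The Ah receptor pathway itself was detected in 5 of 7 cases (71.4%, against 56.5% of all assessed genes). Hepa1c1c7 cells are a standard model for this receptor, which senses dioxins and induces Cyp1a1. Ahr, the receptor, read 1641, its partner Arnt read 433 by 1 of 2 probes, and the chaperone subunit Hsp90ab1 read 74204. Tiparp, a target gene that feeds back on the receptor, read 1118. The repressor Ahrr read 4.53 with 0 of 2 probes detected.

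Bile acid synthesis and transport gave 7 detected genes of 11, or 63.6% against 56.5% of all assessed genes. Slc10a1, the bile acid importer of hepatocytes, read 119470 by its brightest probe, but a second probe read 3.99. The array does not settle whether the importer was expressed. Cyp7a1, the rate-limiting enzyme of bile acid synthesis, read 4.62 and was not detected, and the conjugating enzyme Baat read 15.9 with 0 of 2 probes. Hsd3b7, which acts after Cyp7a1, and Amacr, of side chain shortening, read 1942 and 3736. Among exporters, Abcc3 read 1326 with another probe at 10.7 in the rows left out, the phospholipid flippase Abcb4 758 and Abcc2 101. Abcb11, the bile salt export pump, read 4.39 in the rows left out.

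The urea cycle and amino acid breakdown gave 10 detected genes of 19, or 52.6% against 56.5% of all assessed genes. Ass1, which joins citrulline and aspartate, was the brightest at 6145. Arg1, which releases urea, read 4.43, Otc, which makes citrulline, read 4.16, and Nags, which makes the activator of the cycle, read 4.21, and none was detected. Another Otc probe, in the rows left out, read 44.5 and was flagged. Cps1, the entry enzyme, read 13.5 in the rows left out and Asl read 1447 there. Glul, which makes glutamine, read 1764. Mat1a, the liver form of the enzyme that makes S-adenosylmethionine, read 4.36, while Mat2a, the form of dividing cells, read 13665 by 2 of 2 probes in the rows left out. Hpd (4.25), Hgd (3.98) and Sds (4.08) of amino acid breakdown were not detected.

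Glucose release and glucose breakdown were read as separate lists. Gluconeogenesis, glycogen and fructose genes were detected in 8 of 16 cases, or 50% against 56.5% of all assessed genes. Ugp2, which makes the donor for glycogen, was the brightest of them at 3434. Pck1 (4.10), Fbp1 (4.16) and G6pc (16.2), enzymes of glucose release, were not detected. Slc37a4, the glucose-6-phosphate transporter, read 1275, Pcx, which makes oxaloacetate from pyruvate, 1273 and Pck2, the mitochondrial relative of Pck1, 66.6, with another Pck2 probe at 1320 in the rows left out. Slc2a2 (5.71), the liver glucose transporter, was not detected either. Glycolysis was detected in 14 of 17 cases (82.4%), with 9 in the top 25%. Gapdh, Pgk1 at 99362 and Eno1 at 71644 led the list, and the hexokinases Hk1 and Hk2, which most tissues outside the liver use, read 10196 and 848. In the rows left out, Ldha, which makes lactate, read 115939 and Aldoa 101384.

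Sterol and fatty acid synthesis was detected in 19 of 19 cases, with 8 in the top 25%. Fasn, the fatty acid synthase, read 24847, Acly, which supplies cytosolic acetyl-CoA, 14068, and Scd2, a desaturase, 14425. Scd1, the desaturase that predominates in adult liver, read 884. In the sterol branch Fdps read 9294, Sqle 8314 and Hmgcs1 3299, and the regulators Srebf1 and Srebf2 read 3936 and 542. Insig1, which holds these regulators back when sterol is plentiful, was the lowest at 43.6.

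Fatty acid oxidation and ketone bodies gave 11 detected genes of 14, or 78.6% against 56.5% of all assessed genes. Cpt1a, the gate for entry of fatty acids into mitochondria, read 2978, and Acadm, Hadh and Hadhb of the oxidation spiral read 3222, 3266 and 2996. Fabp1, the liver fatty acid binding protein, read 3.90 and was not detected. Oxct1, which lets tissues other than the liver burn ketone bodies, was the brightest at 14260.

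**Figure D3:**
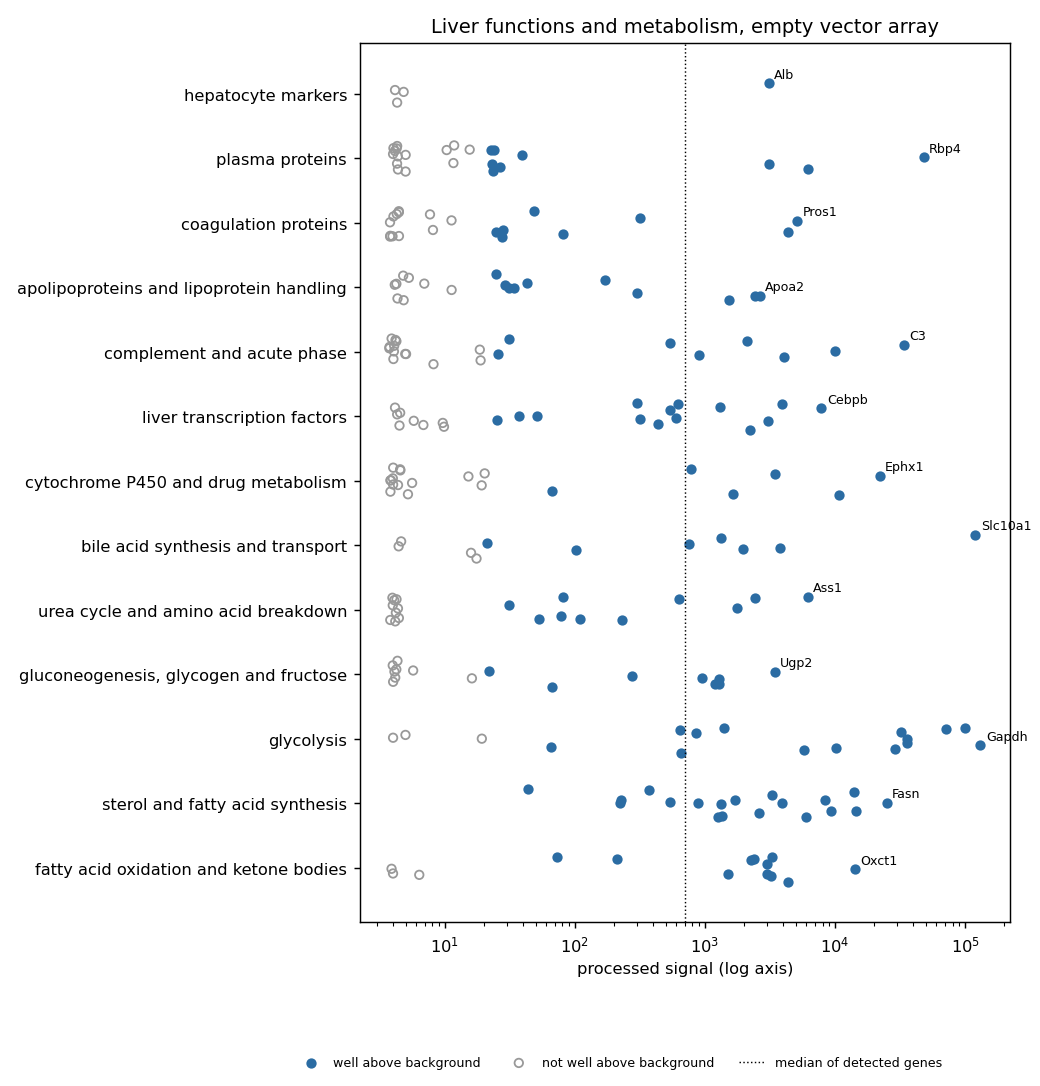
Processed signal (horizontal log axis) of every assessed member of 13 lists of liver functions and metabolism on the empty vector array, with filled points for genes well above background, open points for the others, and a dotted line at the median of all detected genes (708). Vertical position within a list has no meaning. Lists of secreted proteins and P450s show many open points below 20, while sterol and fatty acid synthesis shows none.

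Iron handling was detected in 11 of 14 cases (78.6%, against 56.5% of all assessed genes). Besides Fth1, the light chain of ferritin Ftl1 read 39187, Hmox1, which frees iron from haem, 9661, and Tfrc, the transferrin receptor, 4638 by 2 of 2 probes. Tfr2 (9.21), Bmp6 (4.08) and Hjv (4.03), which tune hepcidin in liver, were not detected, and Hamp, the hepcidin gene, read 3.87 in the rows left out. Receptors through which hormones act on hepatocytes were detected in 6 of 14 cases (42.9%, against 56.5% of all assessed genes). Adipor2, a receptor of adiponectin, read 10407, the insulin receptor Insr read 25.2, with another probe at 9.03 and not flagged in the rows left out, and the glucagon receptor Gcgr read 143. The growth hormone receptor Ghr (13.7), Asgr1 (6.15), which clears asialoglycoproteins, and Klb (7.99), the co-receptor of fibroblast growth factor 21, were not detected.

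Oncofetal and progenitor genes were detected in 9 of 18 cases, or 50% against 56.5% of all assessed genes. Hmga1, a chromatin protein of fetal and tumour cells, read 69268 by 2 of 3 probes. Spp1, the secreted protein osteopontin, read 17474, the RNA-binding protein Igf2bp3 4022 and the surface protein Cd24a 2457. Sall4, a factor of fetal liver, read 358. Igf2, the fetal growth factor, read 20.6 by 1 of 2 probes, Dlk1 read 5.82 and Lin28a read 14.8, with another Lin28a probe at 115 and flagged in the rows left out. In the rows left out, Igf2bp1 read 3276, Gpc3, a surface antigen of liver cancer, 429, H19 7.02 and Epcam 4.24. Igf2bp2 (9.68), Mest (6.80) and Peg3 (3.84) were not detected, and the imprinted gene Plagl1 read 67.0, with another probe at 3.95 and not flagged in the rows left out.

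Genes of cell division were detected without exception among those assessed. DNA replication was detected in 22 of 22 cases, with 15 in the top 25% and a median percentile of 92.4 against 50 for all assessed genes. The helicase subunits Mcm6 and Mcm3 read 36361 and 25795, Pcna, the sliding clamp, 15279 and Prim1, the primase, 11471. Orc1, a subunit of the origin complex, was the lowest at 482. Mitosis was detected in 23 of 23 cases, with 15 in the top 25%. Cdc20 read 16374, Plk1 14487, the ubiquitin enzyme Ube2c 12433, the kinase Aurka 9809 and Mki67, the proliferation antigen, 7049. The kinase Ttk was the lowest at 206.

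The regulators of entry into the cycle were detected in 17 of 22 cases (77.3%, against 56.5% of all assessed genes). Cdk4 read 44733 by 3 of 3 probes and its partners Ccnd1 and Ccnd3 read 20610 and 8676. Ccne1 read 6249, Myc 3469 and E2f1 2386. The inhibitors differed among themselves. Cdkn1a, a target of p53, read 2990, Cdkn2c 1919, Cdkn2d 1792 and Cdkn1b 1340. Cdkn2a and Cdkn2b, which lie side by side in the genome, read 4.08 and 3.75, and Cdkn1c read 8.76. An absent signal does not tell a lost gene from a silent copy.

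Tumour suppressor genes were detected in 16 of 19 cases (84.2%, against 56.5% of all assessed genes). The exceptions were Cdkn2a, Cdkn2b and Bap1 at 17.6. In the rows left out, another Bap1 probe read 1491 and was flagged, so the probes for Bap1 disagreed. Tsc2, a brake on mTOR, read 6826 by 2 of 2 probes, Smad4 6520 and Trp53, which encodes p53, 2009. Axin1, a part of the complex that degrades beta-catenin, read 3901. Apc, of the same complex, read 30.6. Nf2 read 26.6, but its probes in the rows left out read 81.7 and 5109, both flagged. These are levels of RNA and say nothing of mutations.

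Receptor tyrosine kinases were detected in 27 of 44 cases (61.4%, against 56.5% of all assessed genes), 13 of them in the lowest 25%. Among the probes used, the brightest were those of the ephrin receptors Ephb3 at 21003 and Epha2 at 7645. Tyro3 read 3742 by 1 of 2 probes. Axl, of the same family as Tyro3, read 526, and its other probe, in the rows left out, read 34803. Among receptors known for roles in liver growth, Erbb2 read 1182, Egfr 454 by 3 of 3 probes, Met, the receptor of hepatocyte growth factor, 157 and Igf1r 65.6. A second Met probe, in the rows left out, read 8407, and a second Igf1r probe there read 3.89 and was not flagged. Erbb3 read 6.80 and Fgfr1 read 4.33 with 0 of 4 probes detected. Mst1r, the receptor the study placed in the vector of another array, read 4.15. Detection was 45.5% of the list in place of 61.4% when most of a gene's probes had to be flagged.

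Ligands of such receptors were detected in 14 of 22 cases, or 63.6% against 56.5% of all assessed genes. Tgfb3 read 3992, Vegfc 1941, the Egfr ligand Areg 991, Vegfa 738 and the activin subunit Inhba 693. Hgf, the ligand of Met, read 3.76 and Fgf2 4.63. In the rows left out, Ccn2, a target of YAP and of TGF-beta, read 11222, Pdgfa 8338, Hbegf 4714 and Gdf15 4398. Mst1, the ligand of Mst1r, read 104 there.

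Inside the cell, the Ras-ERK and PI3K-mTOR core was detected in 29 of 29 cases, with 12 in the top 25%. Akt1 read 17521, Eif4ebp1, a brake on translation under mTOR, 14174 and the phosphatase Ptpn11 10490. Of the Ras genes, Hras read 6080 by 1 of 2 probes and Nras 3195. The kinase Braf read 48.9, and its probe in the rows left out read 821. Akt1 and Akt2, at 5332 by 3 of 3 probes, stood in the top 25%.

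The Wnt pathway was detected in 27 of 42 cases, or 64.3% against 56.5% of all assessed genes. Several genes that Wnt signalling is known to induce were detected. Sp5 read 3923, Rnf43 3875, Notum 2969 and Axin2 1391, and Lgr5 read 3252 in the rows left out. Notum and Axin2 mark the cells around the central vein in normal liver. Lef1 and Tcf7, which pair with beta-catenin, read 306 and 224, and Ctnnb1, the beta-catenin gene itself, read 92.0 by its only assessed probe and 4026 by a flagged probe in the rows left out. Nkd1, also a target, read 8.81. Of the ligands, Wnt6 read 12917 in the rows left out, Wnt10a read 2684 and Wnt1 354, whereas Wnt2, which endothelial cells of the liver make, read 3.79 and Wnt9a, Wnt3a and Wnt2b lay between 4.08 and 4.22. Glul, which the same pathway induces around the central vein, read 1764.

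Other developmental pathways were read in the same way. Hippo genes were detected in 14 of 14 cases, with the YAP targets Ankrd1 at 5272 and Ccn1 at 3589 the brightest and Yap1 itself at 7472 in the rows left out. TGF-beta and BMP genes were detected in 15 of 18 cases (83.3%), led by Id1, a BMP target, at 8298 and Smad4. Notch genes were detected in 7 of 14 cases, or 50% against 56.5% of all assessed genes. The receptor Notch3 read 563, the ligand Jag1 1154 and the target Hes1 158, but the targets Hey1 (3.90), Hey2 (4.57) and Nrarp (3.90) were not detected. Hedgehog genes were detected in 3 of 8 cases (37.5%, against 56.5% of all assessed genes). The target Gli1 read 371, Ptch1 36.1 and the ligand Shh 4.17.

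Cytokine receptors were detected in 20 of 21 cases (95.2%, against 56.5% of all assessed genes), with 9 in the top 25%. Tnfrsf12a, the receptor of TWEAK, read 19854, Tnfrsf1a, a receptor of tumour necrosis factor, 5521 and Il17rc 4969. The chains that carry interleukin 6 signals, Il6ra and Il6st, read 2740 and 846, and the interferon receptors Ifngr1 and Ifnar2 read 3129 and 2957. The exception was Il1rl1, the receptor of interleukin 33, at 3.96 with 0 of 2 probes detected.

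Nuclear receptors were detected in 23 of 41 cases, or 56.1% against 56.5% of all assessed genes. Rarg, a retinoic acid receptor, read 7059, Nr1h2, an oxysterol receptor, 5575 and Nr3c1, the glucocorticoid receptor, 3286. Rxra, the common partner, read 6283 in the rows left out. Besides Hnf4a and Ppara, Thrb (4.02), the thyroid hormone receptor of liver, and Esrrg (3.82) were not detected.

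**Figure D4:**
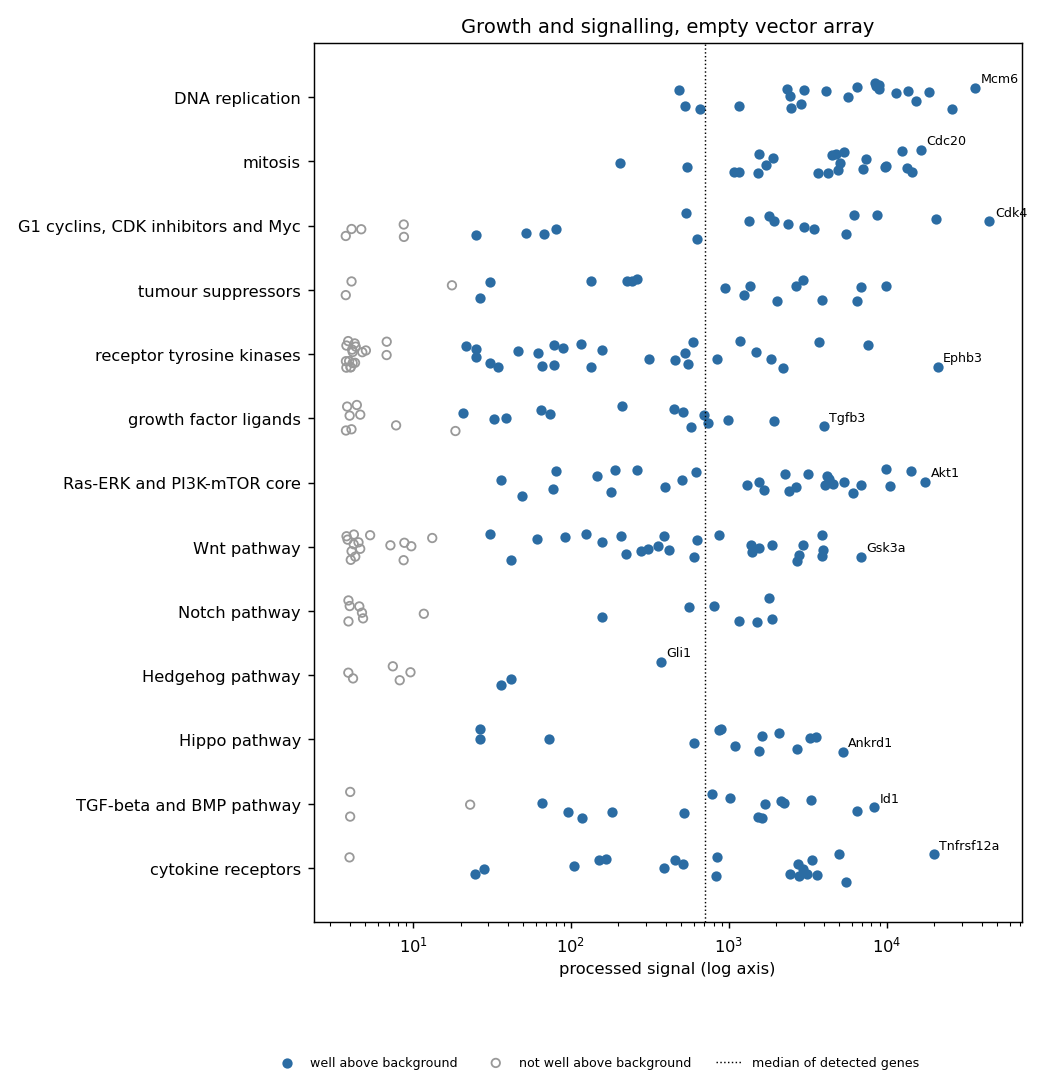
Processed signal (horizontal log axis) of every assessed member of 13 lists of growth and signalling on the empty vector array, with filled points for genes well above background, open points for the others and a dotted line at the median of all detected genes (708). Vertical position within a list has no meaning. DNA replication, mitosis, the Ras-ERK and PI3K-mTOR core and the Hippo pathway show no open point, and receptor tyrosine kinases and the Wnt pathway show both kinds.

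Epithelial and mesenchymal genes were both present. Epithelial genes were detected in 17 of 19 cases (89.5%, against 56.5% of all assessed genes), 5 of them in the lowest 25%. The lowest of those detected was Ceacam1 at 21.2, with another probe at 3.93 that was not flagged. The keratin Krt8 read 69776, Krt7, a keratin of bile duct cells, 13189 and the tight junction protein Cldn3 6381, and Krt18, the partner of Krt8, read 150328 in the rows left out. Cdh1, the adherens junction protein E-cadherin, read 4.76 and was not detected. Of 9 further epithelial genes that lay only in the rows left out, 6 were flagged and 3 were not. Mesenchymal genes were detected in 15 of 19 cases. Vim, the intermediate filament vimentin, read 40554, Fn1, fibronectin, 39677 by 3 of 3 probes, Sparc 13540 and Cdh2, N-cadherin, which hepatocytes also carry, 3620. The regulators Snai2 (5.03) and Twist1 (3.79) were not detected, and Snai1 read 606.

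Markers of other cell types of the liver were read as a check on what the culture held. Cholangiocyte markers were detected in 5 of 8 cases (62.5%, against 56.5% of all assessed genes), led by Spp1 and Krt7. Of the 5 detected, 2 lay in the lowest 25%, with Onecut1 the lowest at 50.7, and 3 of the 8 were not detected. Stellate cell and fibroblast markers were detected in 5 of 11 cases (45.5%, against the same 56.5%). Col1a1, a collagen chain, read 6508 and Acta2 5821 by 1 of 2 probes. Lrat (4.31), Reln (4.52), Thy1 (4.03) and Lum (4.58) were not detected. Dcn, the proteoglycan decorin, read 41199 in the rows left out. Endothelial markers were detected in 7 of 9 cases (77.8%, against the same 56.5%). However, Pecam1 (35.9), Vwf (27.4), Lyve1 (23.3) and Stab2 (47.4) were in the lowest 25%. Another Stab2 probe read 5.58 in the rows left out, Kdr read 3.79 and in the rows left out Cdh5 read 5.15. Only Esam (1196) and Egfl7 (1167) of that list lay over 100. Macrophage markers were detected in 4 of 8 cases, or 50% against 56.5% of all assessed genes. Among them Itgam read 1915 by 1 of 2 probes and Adgre1 4.87, and Csf1r read 2825 in the rows left out. Lymphocyte markers were detected in 1 of 8 cases (12.5%), Lck at 21.1, and Ptprc, which all white blood cells carry, read 3.81. Of 4 further lymphocyte markers that lay only in the rows left out, 1 was flagged, Cd3e at 520, and 3 were not. The assessed Cd4 probe was not flagged, but another Cd4 probe, in the rows left out, read 1646 and was flagged. On the arrays labelled Mst1r vector and Slpi vector, that Cd4 probe read 1495 and 1416, and the Cd3e probe read 521 and 576. Genes of unrelated tissues were detected in 9 of 33 cases (27.3%), with Krt14 at 1602 and Snap25 at 1412 by 1 of 2 probes the brightest.

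**Figure D5:**
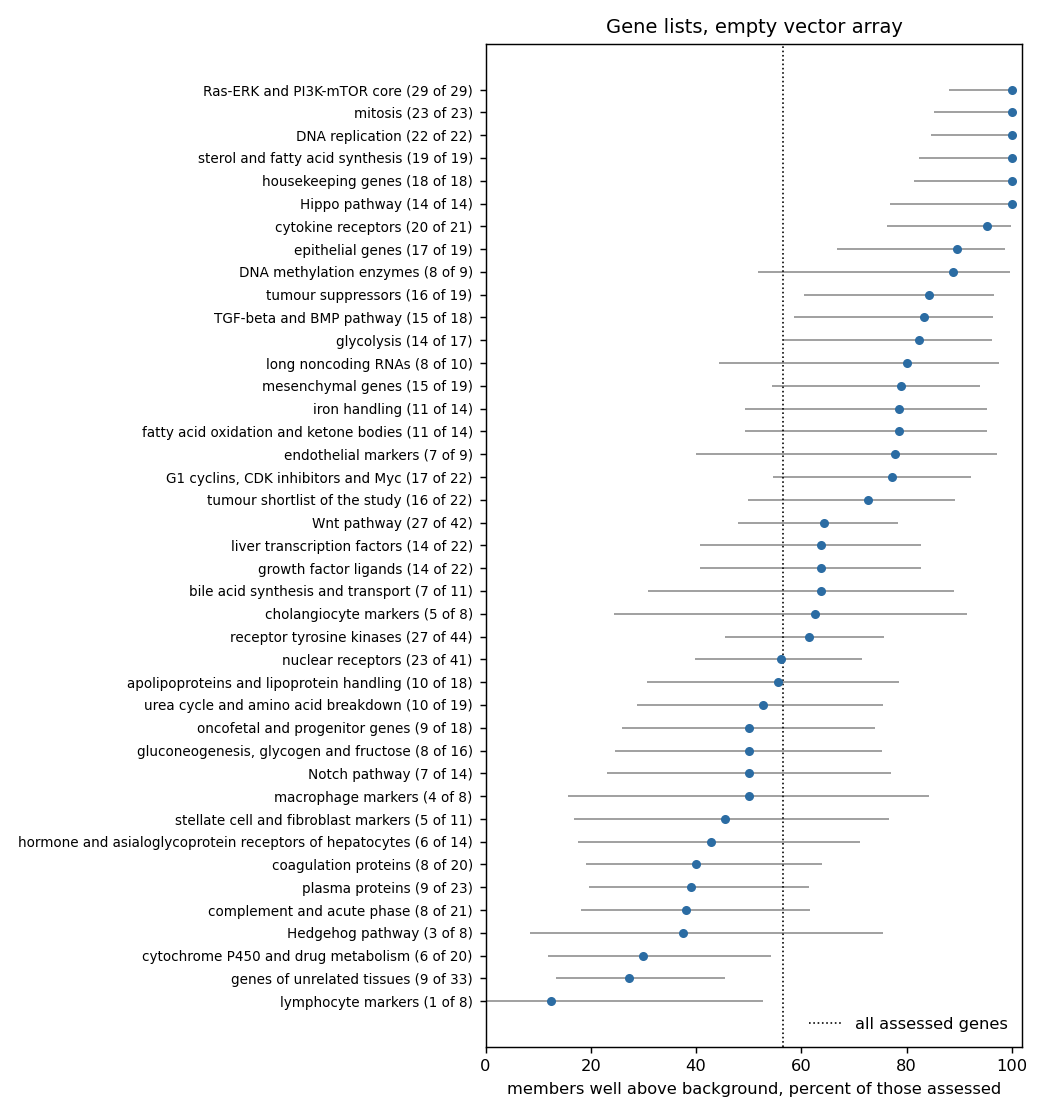
Percent of assessed members well above background (horizontal axis) for each list of at least 8 assessed genes on the empty vector array, with the counts in brackets, exact 95% binomial intervals as bars and a dotted line at 56.5% for all assessed genes. The intervals reflect the size of each list only, since genes of a list are not replicates. DNA replication, mitosis and sterol and fatty acid synthesis reach 100%, and P450s, genes of unrelated tissues and lymphocyte markers lie lowest.

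The genes that the study followed were read on all 3 arrays. Slpi, a secreted inhibitor of proteases, read 6459 on the empty vector array, and its second probe read 106. On the arrays labelled Mst1r vector and Slpi vector the brighter Slpi probe read 3843 and 6680. Slpi was in the top 25% of detected genes without its vector. Mst1r read 4.15 on the empty vector array and 4.08 and 3.70 on the other arrays, so its only probe gave no signal on the array labelled Mst1r vector either. Whether the probes for Slpi and Mst1r lie within the coding sequences carried by the vectors was not tested, and neither label could be checked in this way. The study itself reported overexpression of Mst1r in Hepa1c1c7 cells given the Mst1r vector, measured by real-time PCR. Extl1, a glycosyltransferase gene, read 23.9 by 1 of 2 probes, which lies under the brightest undetected gene (24.5). By real-time PCR, the study found no Extl1 expression in Hepa1c1c7 cells. The cytokine gene Il33 read 8.10 and was not detected. The Il33 probe of the rows used read 4.82 and 4.23 on the arrays labelled Mst1r vector and Slpi vector. A second Il33 probe, in the rows left out, read 8.41 on the empty vector array, 166 on that labelled Mst1r vector and 3.79 on that labelled Slpi vector. The study also reported higher Il33 in Hepa1c1c7 cells overexpressing Mst1r, again by real-time PCR.

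Enzymes of DNA methylation were detected in 8 of 9 cases (88.9%, against 56.5% of all assessed genes). Uhrf1, which guides the maintenance enzyme to newly made DNA, read 7468 by 2 of 2 probes, and Dnmt1, that enzyme, read 1029. The de novo enzymes Dnmt3a and Dnmt3b read 347 and 255. The demethylating enzymes Tet2, Tet3 and Tet1 read 341, 219 and 48.7, with another Tet1 probe at 8.86 and not flagged in the rows left out. The brighter Tet1 signal lies under 50, and the study did not detect Tet1 in Hepa1c1c7 cells by real-time PCR. Dnmt3l, a cofactor of germ cells, read 17.9 and was not detected. Of the genes shortlisted by the study from liver tumours, 16 of 22 (72.7%) were detected, led by Itm2c at 10796, Slpi and Cela1 at 3667. That list was chosen by the study on other samples, of mouse liver. Igfals (21.6), C8b (4.24) and Fgl2 (3.87) of the shortlist were at or near background.

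Among sex chromosome genes, Xist, the RNA that silences an X chromosome, read 118, and the Y-linked genes Kdm5d and Eif2s3y read 4.59 and 3.80, neither detected, with Ddx3y at 4.26 and Uty at 4.40 in the rows left out. Erythroid markers were detected in 3 of 7 cases (42.9%, against 56.5% of all assessed genes). The globin gene Hba-a1, which has a near-identical copy, read 256. Long noncoding RNAs were detected in 8 of 10 cases (80%). Pvt1, the neighbour of Myc, was the brightest at 7954 by 2 of 2 probes, and Meg3 at 5.81 was not detected.

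The other arrays gave nearly the same picture of presence and absence. Of the 9729 genes detected on the empty vector array, 96.4% were detected on all 3 arrays, and 135 were detected on the empty vector array alone, with a median signal of 25.1. Detected genes numbered 9582 on the array labelled Mst1r vector and 9698 on that labelled Slpi vector. The correlation of log2 signal across the detected genes was 0.991 with the first over 9728 genes and 0.996 with the second over 9729, and the points share probe sequences, slide and cell line. Because the arrays share so much, this describes how steady the readings were and is no replicate of the empty vector.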

How the data were processed

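Gene expression was measured on 3 arrays of Hepa1c1c7 cells, 1 per vector. Per the file headers, the authors extracted spot intensities with Agilent Feature Extraction 12.0.3.1, and the deposited processed signal is an intensity after background subtraction and spatial detrending, not scaled between arrays. The deposited table of the whole series holds the same kind of intensity. Here, log2 signals were averaged over spots of a probe without outlier spots, and probes were named through RefSeq accessions. Probes in rows 129 to 384, or printed 10 times, were used, and a gene took its brightest probe. Depth does not apply to arrays, and their number limits the precision. The 30 brightest genes and members of 46 lists could be named, with 998 distinct genes: 763 were assessed, 223 lay in rows 1 to 128 and 12 had no matched probe. The members and lists were chosen with earlier results of these data known. Alternatives were other rows, a signal minimum of 50, most probes flagged, the median probe, the other arrays, the series table and normexp correction (limma 3.58.1, offset 50), which used median intensities in place of means. Other steps used Python 3.11.15, pandas 2.3.3, numpy 2.4.6 and scipy 1.17.1, and were tested on simulated data. No comparison between groups was tested. Some members of the lists are counted but not reported here by name.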

Additional observations from a re-analysis of the deposited data

Results flagged for a closer look

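The first block of rows of the array, which was left out, carried signal on control probes. Among ERCC control probes whose median signal was under 15, 25 of 934 spots in these rows (2.68%, exact 95% interval 1.74% to 3.93%) read over 50 on the empty vector array, and 90 (9.64%) were flagged well above background. In the other rows, 0 of 1754 such spots read over 50, which allows a share of up to 0.210% by the exact interval, and 7 (0.399%) were flagged. These probes were picked by their own median, and the cause was not tested.

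Probes without a gene symbol also gave signal. Of 15857 such probes in the rows used, 5213 (32.9%) were well above background, and none entered the counts of genes.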

How the results depend on the processing

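The number of detected genes stayed within 1.5 times 9729 under all 8 alternatives. Together with the lists, 646 of 652 recomputed values stayed within that factor, within the interval of the list or, for median percentiles, within the SD between probes of a gene (16.6 percentile points), and 6 did not. With a signal over 50 in place of the flag, detection was 13.04% for plasma proteins, 27.8% for apolipoproteins, 33.3% for endothelial markers and 0% for lymphocyte markers. When most of a gene's probes had to be flagged, it was 45.5% for receptor tyrosine kinases and 0% for lymphocyte markers. These settings remove genes at signals near background or with disagreeing probes by construction. The count over all rows on all 3 arrays was chosen after seeing the data. It held 48.2% of the 5703 genes read in the first block of rows alone, against 54.5% of the assessed genes on all 3 arrays. No paired analysis was possible because each vector had 1 array. Low signals near the floor have no order.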

Other observations

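Hox genes, which pattern the body axis, were detected in 9 of 31 assessed cases (29.0%). Hoxa10 read 1348 by 2 of 2 probes and Hoxc9 538. These genes were read after the lists and named because of their values. Solute carriers, the membrane transporters, were detected in 169 of 295 cases (57.3%, against 56.5% of all assessed genes), with 22 in the top 25%. After Slc10a1, whose probes disagreed, the brightest were the haem carrier Slc48a1 at 21353 and the mitochondrial phosphate carrier Slc25a3 at 19744. Zinc finger genes named Zfp were detected in 225 of 278 cases (80.9%), and 16 stood in the top 25%. Of 11 assessed Ugt genes, which attach glucuronic acid to drugs and bilirubin, 2 (18.2%) were detected, Ugt1a6b at 894 and Ugt2a1 at 76.5. Of 18 Serpina genes, the plasma protease inhibitors, 7 (38.9%) were detected, and none was in the top 25%. The brightest of these was Serpina3h at 153. Genes of the Serpina3 and Ugt families have near-identical copies.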
